A study of Mus musculus with 4 samples.

Results

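The values of 10 genes of MHC class I antigen presentation were compared in leukemia-initiating cells (LICs) of the MLL-AF9 mouse model of acute myeloid leukemia, using 2 WT and 2 CD274-null libraries as labelled. The genes were picked by name for their place in the pathway and not by their values, and they are 10 of the 27179 genes in the deposited table. They comprise the heavy chains H2-K1 and H2-D1 with their light chain B2m, the peptide loading genes Tap1, Tap2 and Tapbp, the immunoproteasome subunits Psmb8, Psmb9 and Psmb10, and the regulator Nlrc5. All 10 were matched by NCBI gene number and all 10 passed the filter of a mean FPKM of at least 0.5. FPKM, the number of fragments scaled by gene length and library depth, allows genes of different length to be set side by side.

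Both groups came from C57BL/6 bone marrow with a labelled age of 6 weeks, and the labelled genotypes are wild type and CD274-/-. CD274, also called PD-L1, is a ligand of the T cell inhibitory receptor PD-1. Cells of both groups carry MLL-AF9, a fusion oncogene that was expressed from a retroviral vector with a YFP marker in lineage-negative fetal liver cells and transplanted into lethally irradiated C57BL/6 mice, so that any host cells left in the sort would carry the genotype of the recipients. The sorted cells are labelled LSC and are described by the study as Mac-1+/c-Kit+ LICs, the RNA source is tissue in its methods and sorted cells in the labels, and the round of transplantation is not stated in the sources used here. Nothing states that the replicates of a group came from separate mice, so every p-value below measures only the spread between these libraries, which may be technical.

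The deleted gene was examined before the pathway. Cd274 (NCBI gene 60533) had an FPKM of 2.80 and 0.945 in the libraries labelled WT and of 1.43 and 2.29 in those labelled CD274-null, with overlap between the groups and a log2 fold change of 0.09 with a standard error of 0.51 (adjusted p = 0.955 from limma). A value per gene does not show which exons its reads came from, so these values do not show whether part of the gene is deleted. Every direction below therefore rests on the labels alone. Reads recovered from the FPKM values summed to between 8452662 and 11048767 per library. Of the 2 genes behind the sort, Itgam, which encodes the Mac-1 alpha chain, ranged from 100.2 to 174 FPKM. Kit had 6.59 FPKM in WT replicate 1 and between 16.2 and 19.5 FPKM in the other libraries. Of 8 markers listed for these LICs, all tested, 1 was called higher by the thresholds given below, against 2.39% of all tested genes, the myeloid granule gene Mpo, with 444 and 403 FPKM in WT and 1427 and 925 FPKM in CD274-null libraries, and Hoxa9, a known target of MLL fusions, ranged from 71.3 to 75.8 FPKM.

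MHC class I molecules show peptides from inside the cell to CD8+ T cells. Proteasomes cut proteins into peptides, the TAP transporter carries them into the endoplasmic reticulum, and tapasin holds the empty heavy chain and B2m at the transporter until a peptide fits. Interferon is known to raise the whole pathway in many tissues, through IRF1 and through NLRC5, which acts on a promoter module of S, X and Y boxes that class I genes share with class II genes.

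The promoters of both heavy chains and B2m are shown first, because they carry this shared module, and that of Tap1 is shown because it covers the DNA between the start sites of Tap1 and Psmb9. RefSeq promoter windows (GRCm38.p6, 250 bases before to 50 bases after a start site) were matched for 8 of the 10 members, and Tap2 and Nlrc5 had no match. The letters searched on both strands were GAAA, 2 further bases and GAAA for the interferon-stimulated response element, TTCNNNGAA for the gamma-activated site (GAS), the 10 letters of the enhancer A NF-kB site, which are the first capitals in H2-K1 below, TGACG for the X2 box and ATTGG for the Y box. Capitals mark every match, and each run gives the 250 bases before the start site, 5′ to 3′ on the strand of the gene.
H2-K1, chr17:34000348-34000597, minus strand: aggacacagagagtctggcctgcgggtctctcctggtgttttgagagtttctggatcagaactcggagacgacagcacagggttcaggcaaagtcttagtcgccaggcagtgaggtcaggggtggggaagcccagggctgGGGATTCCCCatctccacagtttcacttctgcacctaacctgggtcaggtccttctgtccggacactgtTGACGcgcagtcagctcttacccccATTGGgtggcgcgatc
H2-D1, chr17:35262844-35263093, plus strand: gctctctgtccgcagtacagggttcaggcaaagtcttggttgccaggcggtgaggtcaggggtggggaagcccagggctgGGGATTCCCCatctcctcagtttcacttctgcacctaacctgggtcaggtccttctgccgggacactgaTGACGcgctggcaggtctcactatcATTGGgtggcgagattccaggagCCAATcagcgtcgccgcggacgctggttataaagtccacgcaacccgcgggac
B2m, chr2:122147437-122147686, plus strand: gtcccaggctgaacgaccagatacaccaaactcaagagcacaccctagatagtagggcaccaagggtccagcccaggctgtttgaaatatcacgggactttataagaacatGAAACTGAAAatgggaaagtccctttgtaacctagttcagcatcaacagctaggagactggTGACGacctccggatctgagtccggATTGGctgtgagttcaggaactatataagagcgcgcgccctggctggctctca
Tap1, chr17:34187306-34187555, plus strand: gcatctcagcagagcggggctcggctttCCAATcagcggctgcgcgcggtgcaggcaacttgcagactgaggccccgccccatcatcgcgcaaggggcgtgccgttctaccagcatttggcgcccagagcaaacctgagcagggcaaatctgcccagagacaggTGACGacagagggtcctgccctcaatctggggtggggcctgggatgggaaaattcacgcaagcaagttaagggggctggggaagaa

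In H2-K1, H2-D1 and B2m the X2 letters were followed by the Y letters after exactly 20 bases, beginning 41, 101 and 78 bases before the start site. This spacing was found in 26 of 27025 RefSeq promoters, or 0.0962%, and in none of the other 5 members with a promoter window. The nonclassical class I gene H2-M3 was a further one of the 26. The spacing of 20 bases was fixed for the search and no other was counted, so its rarity is no test of these members. The NF-kB letters stood in both heavy chain promoters and in 0.0740% of all promoters, and the interferon-response letters in B2m and in 3.49% of all promoters. The GAS letters were found in Psmb8 alone among the members, 97 bases before its start site, and in 8.47% of all promoters. The Tap1 window held the X2 and Y letters, which occur in 21.02% and 37.9% of all promoters, but not at the fixed spacing. Tap1 and Psmb9 are read in opposite directions from start sites 226 bases apart, so that 275 bases of their windows are the same DNA. A match is a description of the letters in these windows and no evidence of a bound factor. Other forms of these sites were not searched, so a missing match does not show that a site is absent.

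All 10 members were detected in every library, at levels that spanned a wide range. B2m had the highest level at 615 ± 52.6 FPKM (mean ± SD over the 4 libraries), rank 83 among the 13230 tested genes. H2-D1 followed with 359 ± 31.4 FPKM and H2-K1 with 257 ± 51.2 FPKM, at ranks 147 and 214. The immunosubunit Psmb8 (113 ± 10.7 FPKM) and the transporter subunit Tap2 (92.9 ± 24.1 FPKM) came next. Psmb9, Tapbp and Psmb10 lay close together at 64.0 ± 10.4, 61.0 ± 11.8 and 58.5 ± 7.83 FPKM. Tap1 had 31.6 ± 4.47 FPKM and Nlrc5 1.60 ± 1.17 FPKM. Neighbours in this order had separate ranges over the 4 libraries between B2m and H2-D1, H2-K1 and Psmb8, Psmb10 and Tap1, and Tap1 and Nlrc5, and overlapping ranges between all other neighbours.

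**Figure D1:**
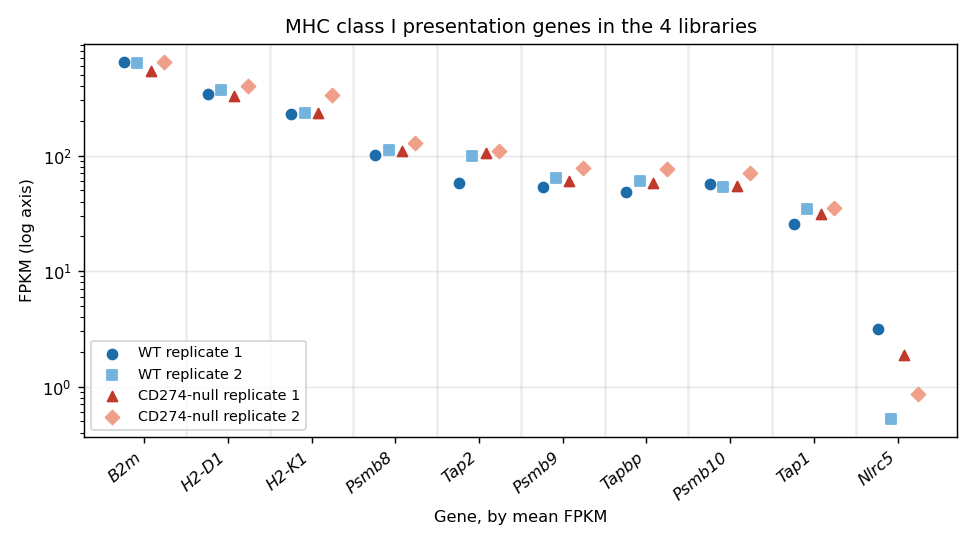
FPKM of the 10 members in each of the 4 libraries, on a log axis, with one point per library coloured by its labelled group. B2m lies highest at 537 to 648 FPKM and Nlrc5 lowest at 0.523 to 3.14 FPKM, and in all members but Nlrc5 the highest point is CD274-null replicate 2.

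The comparison of CD274-null with WT asked whether the pathway differed with the labelled loss of CD274. None of the 10 members was called by limma at the thresholds of the study, an unadjusted p under 0.01 with a fold change above 1.5, where 3.63% of all tested genes were called (2.39% higher and 1.24% lower). The count at an unadjusted p under 0.05 was 0 of 10, against 13.7% of all tested genes, and at an adjusted p under 0.05 it was 0 against 0.0756%. Limma's voom on recovered reads called 0 members as well. The log2 fold change was above 0 in 8 members and below 0 in 2, with a median of 0.17 against 0.01 for all tested genes. The median of the members was 0.0619 with GC correction and 0.0354 without CD274-null replicate 2, where that of all tested genes was higher at 0.0806. For scale, the 95% interval of the fold lay within 2-fold either way for 8 members, all but Tap2 and Nlrc5, and for 40.7% of all tested genes. From the highest to the lowest library, 7 members stayed within 1.5-fold, as did 31.4% of all tested genes.

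**Figure D2:**
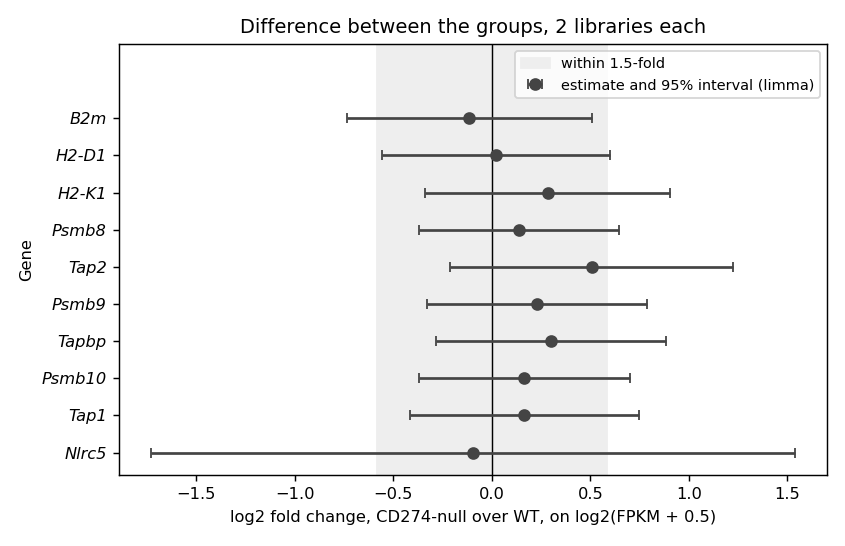
Log2 fold change of CD274-null against WT for each member (points) with its 95% interval from limma on log2(FPKM + 0.5), the shaded band marking a 1.5-fold change either way. All 10 intervals include 0, and that of Nlrc5 is the widest, from -1.73 to 1.54.

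H2-K1 (NCBI gene 14972, chr17:33996012-34000619, GRCm38), a classical heavy chain, had 228 and 232 FPKM in the WT libraries and 234 and 334 FPKM in the CD274-null libraries. Both CD274-null values lay above both WT values, the first of them by little. Its log2 fold change of 0.28 had a standard error of 0.26 and an adjusted p = 0.647 from limma, and the fold of 1.22 had a 95% interval of 0.791 to 1.87. Without CD274-null replicate 2 the log2 fold change was 0.0288.

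H2-D1 (NCBI gene 14964, chr17:35263094-35267497), the other classical heavy chain of C57BL/6 mice, had 341 and 370 FPKM in WT and 328 and 398 FPKM in CD274-null libraries. The WT values lay between the CD274-null values. Its fold was 1.02 with an interval of 0.680 to 1.52 (adjusted p = 0.977 from limma), and the sign of its log2 fold change, 0.02, turned under other scalings given in the closing section.

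B2m (NCBI gene 12010, chr2:122147687-122153082), the light chain that every class I heavy chain needs to reach the surface, had 641 and 635 FPKM in WT and 537 and 648 FPKM in CD274-null libraries. Replicate 1 of CD274-null was the lowest library and replicate 2 the highest, so the groups overlapped. The log2 fold change was -0.11, turning to 0.05 with GC correction, and the fold of 0.924 had an interval of 0.600 to 1.42 (adjusted p = 0.877 from limma). The summed FPKM of both heavy chains relative to B2m was 0.889 and 0.948 in WT against 1.05 and 1.13 in CD274-null libraries, without overlap. Groups did not overlap in either direction in 47.3% of all tested genes, which is the measure for single genes, and no test was run on this ratio. With GC correction the log2 fold changes of H2-K1, H2-D1 and B2m were 0.169, -0.128 and 0.0516, and the ratio was not recomputed with it. H2-K1 relative to H2-D1 was 0.668 and 0.625 in WT against 0.716 and 0.838 in CD274-null libraries.

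Reads of the heavy chains cannot all be assigned to one gene. Among the 50-base windows of the main GENCODE transcript, 8.79% of those of H2-K1 and 14.3% of those of H2-D1 also occurred in transcripts of other genes, and 6.94% of the H2-K1 windows occurred in H2-D1. The longest identical coding run of both heavy chains was 91 bases, in exon 4, and a window of 121 bases around it differed at 3 bases. These windows are shown because reads from them distinguish the genes only where they cover a capital, which marks a differing base.
H2-K1, exon 4, chr17:33997328-33997448, minus strand: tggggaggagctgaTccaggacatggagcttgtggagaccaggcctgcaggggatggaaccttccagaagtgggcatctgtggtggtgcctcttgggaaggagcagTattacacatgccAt
H2-D1, exon 4, chr17:35265896-35266016, plus strand: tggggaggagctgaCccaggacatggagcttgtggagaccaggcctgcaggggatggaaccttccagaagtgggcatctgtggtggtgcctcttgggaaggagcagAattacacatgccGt
How the authors' counting treated such reads is not given in the sources used here, so the split between H2-K1 and H2-D1 is uncertain. Their sum is uncertain as well, since H2-D1 shared 7.40% of its windows with H2-Q1 and 5.99% with H2-Q7. B2m, Psmb10 and Nlrc5 had 0 shared windows. Tapbp shared 21.02% of its windows, most of them with the overlapping gene model Gm19412, Tap2 shared 12.6%, Psmb9 12.5%, Tap1 6.47% and Psmb8 5.83%.

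**Figure D3:**
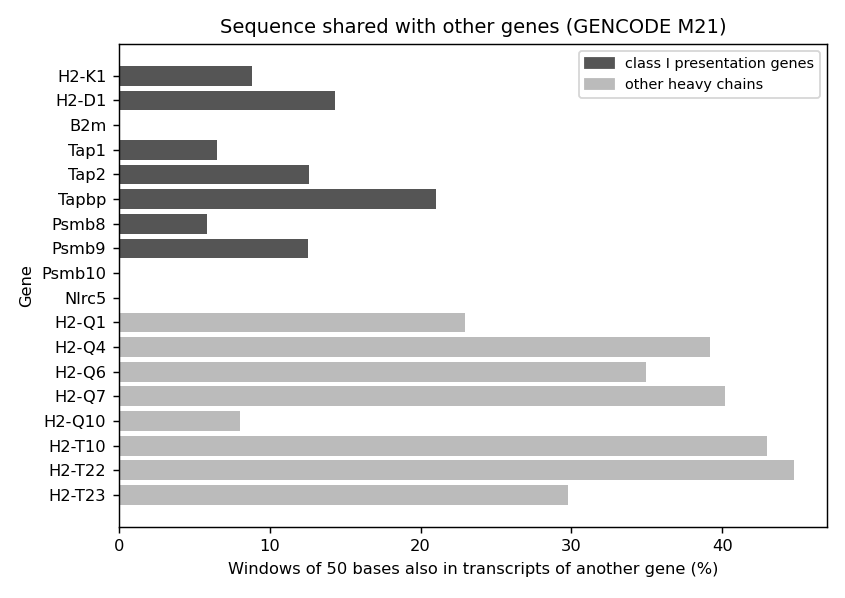
Percentage of 50-base transcript windows that also occur in transcripts of another gene, for the 10 members (dark) and 8 other class I heavy chains (light), with one bar per gene from 0. The classical heavy chains stand at 8.79% and 14.3%, and the other heavy chains drawn range from H2-Q10 (8.03%) to H2-T22 (44.7%).

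Tap1 (NCBI gene 21354, chr17:34187556-34197225), the first subunit of the peptide transporter, had 25.4 and 34.4 FPKM in WT and 31.3 and 35.2 FPKM in CD274-null libraries. The groups overlapped (log2 fold change 0.17, 95% interval -0.42 to 0.75, adjusted p = 0.794 from limma), and the log2 fold change was 0.0166 with GC correction. Tap2 (NCBI gene 21355, chr17:34204479-34216321), its partner subunit, had 57.3 and 99.3 FPKM in WT and 105 and 110.2 FPKM in CD274-null libraries. Both CD274-null values lay above both WT values, but the gap to WT replicate 2 was small beside the distance between the 2 WT libraries. Tap2 had the largest log2 fold change of the members, 0.51 (95% interval -0.21 to 1.22, adjusted p = 0.490 from limma). Without WT replicate 2 the log2 fold change was 0.90. Over the 4 fits that each left out a library it ranged from 0.11 to 0.90. H2-K1 and Tap2 were the only members with both CD274-null libraries above both WT libraries, 2 of 10, and 25.6% of all tested genes had this pattern. No member had both CD274-null libraries below both WT libraries, as 21.8% of all tested genes did. Tap2 relative to Tap1 was 2.26 and 2.89 in WT against 3.35 and 3.13 in CD274-null libraries.

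Tapbp (NCBI gene 21356, chr17:33919478-33929290), which encodes tapasin, had 48.7 and 60.2 FPKM in WT and 58.0 and 77.1 FPKM in CD274-null libraries. Replicate 1 of CD274-null fell between the WT libraries in level. The log2 fold change was 0.30 (95% interval -0.28 to 0.89, adjusted p = 0.600 from limma), and 0.113 with GC correction.

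The immunoproteasome subunits take the place of the constitutive catalytic subunits and change which peptides are cut. Psmb8 (NCBI gene 16913, chr17:34198195-34201454) had 102 and 112 FPKM in WT and 109 and 127 FPKM in CD274-null libraries. Psmb9 (NCBI gene 16912, chr17:34182030-34187330) had 53.7 and 63.9 FPKM in WT and 60.3 and 78.2 FPKM in CD274-null libraries. Psmb10 (NCBI gene 19171, chr8:105935728-105938392) had 56.2 and 53.6 FPKM in WT and 54.1 and 70.1 FPKM in CD274-null libraries. In all 3 genes the groups overlapped and only CD274-null replicate 2 stood above the WT libraries. The log2 fold changes were 0.14 for Psmb8, 0.23 for Psmb9 and 0.17 for Psmb10, with adjusted p-values of 0.804, 0.684 and 0.769 from limma, and that of Psmb10 came to -0.00427 with GC correction.

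Each immunosubunit was set against the constitutive subunit it replaces, as the ratio of their FPKM in one library. Psmb8 over Psmb5 was 1.35 and 1.44 in WT against 1.49 and 2.03 in CD274-null libraries. Psmb9 over Psmb6 was 0.586 and 0.697 in WT against 0.603 and 0.940 in CD274-null libraries. Psmb10 over Psmb7 was 0.453 and 0.384 in WT against 0.460 and 0.662 in CD274-null libraries. The transcript of Psmb8 thus exceeded that of its constitutive counterpart in all 4 libraries, while those of Psmb9 and Psmb10 were below theirs in all 4. Replicate 2 of CD274-null had the highest ratio of all 3 pairs. The differences of the log2 ratios between CD274-null and WT were 0.32, 0.23 and 0.40, with exact permutation p-values, two-sided, of 0.333, 0.667 and 0.333 (0.5, 0.667 and 0.5 after Benjamini-Hochberg adjustment over the 3 pairs). With 2 libraries a group this test cannot go below 0.333. With GC correction the differences were 0.426, 0.156 and 0.0644, and that for Psmb9 over Psmb6 turned to -0.0828 without CD274-null replicate 2. The constitutive subunits themselves were not called, with 0 of 3 called or at an unadjusted p under 0.05 by limma, 0 called by voom and a median log2 fold change of -0.18. Psmb5 had 75.7 and 77.9 FPKM in WT and 73.1 and 62.7 FPKM in CD274-null libraries, and Psmb7 124 and 139 against 118 and 106 FPKM. Both were lower in both CD274-null libraries, a pattern of 21.8% of all tested genes, with log2 fold changes of -0.18 and -0.24. Part of the log2 ratio differences of Psmb8 over Psmb5 and Psmb10 over Psmb7 thus came from the constitutive subunits. Psmb6 had 91.6 and 91.7 FPKM in WT against 99.98 and 83.3 FPKM, with overlap.

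**Figure D4:**
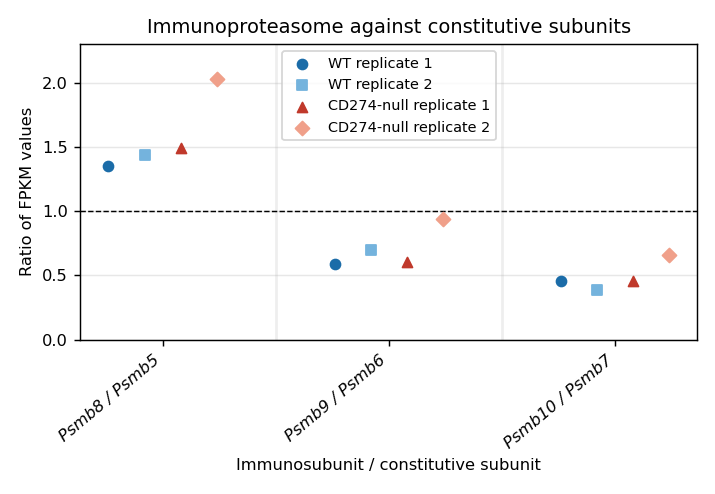
Ratio of the FPKM of each immunosubunit to that of the constitutive subunit it replaces, one point per library, for the WT and CD274-null libraries. Psmb8 over Psmb5 lies above 1 in all libraries, the other pairs lie below 1, and CD274-null replicate 2 is the highest point in each pair.

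Nlrc5 (NCBI gene 434341, chr8:94434335-94527272), the transactivator of class I genes, did not follow the other members. It had 3.14 and 0.523 FPKM in the WT libraries and 1.89 and 0.868 FPKM in the CD274-null libraries. At least 252, 37, 116 and 60 reads lay behind these values. The exact 95% Poisson intervals, which cover counting error only, were 2.76 to 3.55 and 0.368 to 0.721 FPKM in WT and 1.56 to 2.27 and 0.662 to 1.12 FPKM in CD274-null libraries. The libraries of one group thus differed by more than counting error, and the CD274-null values lay between the WT values. Its fold of 0.937 had an interval of 0.302 to 2.91 (adjusted p = 0.964 from limma), the widest of the members, and a difference of Nlrc5 within that range was not detectable in these libraries. Its highest library exceeded its lowest 5.99-fold, which placed Nlrc5 at percentile 92.2 of all tested genes by this ratio.

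Nlrc5 also had its own order of libraries. From high to low it ran from WT replicate 1 through CD274-null replicates 1 and 2 to WT replicate 2, an order that none of the other members and 4.25% of all tested genes had. Among the 13 tested other class I heavy chains, H2-Q6 and H2-Q7 had this full order, and H2-Q4, given below, shared its highest and lowest library, as did 7.02% of all tested genes. H2-Q6 had 8.19 and 1.40 FPKM in WT and 4.84 and 2.87 FPKM in CD274-null libraries, and H2-Q7 had 5.97 and 0.256 FPKM against 2.72 and 1.77 FPKM. Both were singled out after their values were seen, and they share 35.0% and 40.2% of their windows with other genes, each with the other among them. The summed FPKM of 9 mature neutrophil markers, all of them tested, was 36898 and 7665 in WT against 15747 and 28003 in CD274-null libraries. S100a8 and S100a9 made up most of this sum, and without them it was 5571 and 1031 in WT against 2977 and 6224 in CD274-null libraries, nearly all of it Camp. Of the 9 markers, 8 were lowest in WT replicate 2, 6 were highest in WT replicate 1, among them Cxcr2, which had the full order of Nlrc5, and Ly6g, Camp and Ltf were highest in CD274-null replicate 2. The part of these markers in the values of Nlrc5 was not tested, and in bulk RNA fewer cells of a type and less RNA per cell cannot be told apart.

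**Figure D5:**
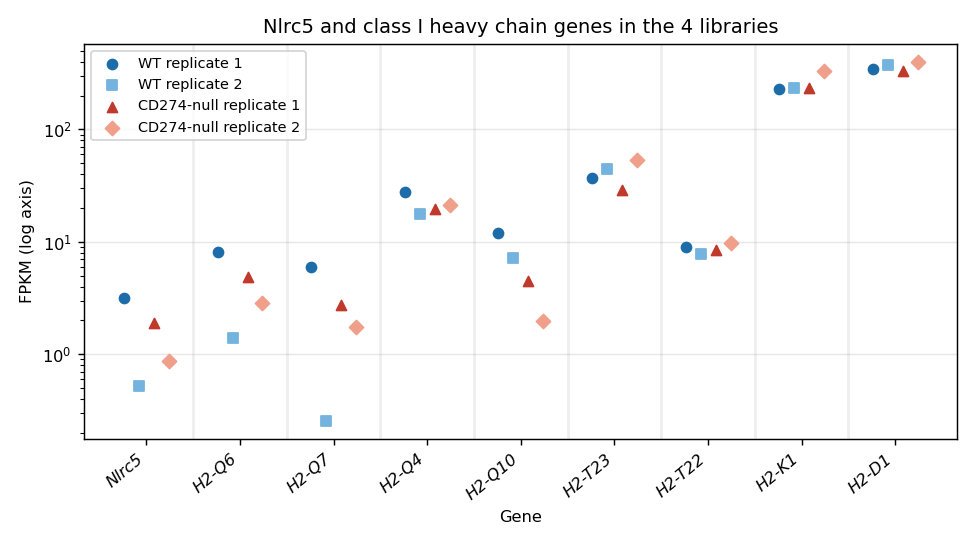
FPKM of Nlrc5, H2-K1, H2-D1 and 6 other class I heavy chain genes in each of the 4 libraries, on a log axis, with one point per library. Nlrc5, H2-Q6, H2-Q7 and H2-Q4 are highest in WT replicate 1 and lowest in WT replicate 2, while H2-K1 (228 to 334 FPKM) and H2-D1 (328 to 398 FPKM) vary less between libraries.

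One library stood out across the members. Of the 10 members, 9, all but Nlrc5, had their highest FPKM in CD274-null replicate 2, as did 21.01% of all tested genes. For 6 members the lowest FPKM was in WT replicate 1, as for 31.97% of all tested genes, and this library also had the lowest Kit. The FPKM of all genes summed to 523766 in CD274-null replicate 2 and to between 492310 and 510948 in the other libraries. The part of either value in the members' levels was not tested. On chromosome 17 lie 7 of the 10 members. Apart from the members themselves, the 5 tested genes whose profile over the 4 libraries lay nearest to the median profile of the members were Fbxo30, Sf3b1, Matn2, B3galt4 and Dctn3, at Euclidean distances of 0.0378 to 0.0535 on the log2(FPKM + 0.5) scale. With 264 tested genes within a distance of 0.2, a profile over 4 libraries is not particular to these genes.

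The other genes of the pathway were taken from lists of roles. Of 19 other class I heavy chains, 13 were tested and 0 were called by limma, by voom or without moderation. Their median log2 fold change was -0.05, with 6 above 0 and 7 below. H2-T23, which encodes Qa-1 and presents leader peptides of classical heavy chains, had 36.8 and 44.6 FPKM in WT and 28.9 and 53.1 FPKM in CD274-null libraries. H2-Q4 had 27.9 and 17.5 FPKM in WT and 19.5 and 21.1 FPKM in CD274-null libraries, and the groups of both genes overlapped. Of the 13 tested, 1 had an unadjusted p under 0.05 by limma, against 13.7% of all tested genes. This was H2-Q10, named after its values were seen. It had 11.9 and 7.20 FPKM in WT and 4.45 and 1.98 FPKM in CD274-null libraries (log2 fold change -1.48, adjusted p = 0.295 from limma).

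All 18 genes of peptide supply and loading were tested and 0 were called by limma, by voom or without moderation, with a median log2 fold change of 0.11. The chaperone gene Hspa5 had 698 and 650.4 FPKM in WT and 647 and 1621 FPKM in CD274-null libraries, and was high in CD274-null replicate 2 alone. Calr, which encodes the calreticulin of the loading complex, had 537 and 939 FPKM in WT and 875 and 1112 FPKM in CD274-null libraries. Of the 18, 1 had an unadjusted p under 0.05 by limma, against 13.7% of all tested genes. This was Erap1, the peptidase that trims peptides in the endoplasmic reticulum, named after its values were seen. It had 31.8 and 24.7 FPKM in WT and 19.2 and 17.6 FPKM in CD274-null libraries (log2 fold change -0.60, adjusted p = 0.349 from limma).

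Of 13 factors that act on class I promoters, 1 was called, against 3.63% of all tested genes, and 2 had an unadjusted p under 0.05, against 13.7%. Atf1, a CREB family factor of the kind that binds the X2 letters marked above, had 39.56 and 40.02 FPKM in WT and 24.03 and 22.4 FPKM in CD274-null libraries. It was lower in both CD274-null libraries (log2 fold change -0.77, adjusted p = 0.274 from limma). Nfya, a subunit of the factor that binds the Y box, had 22.6 and 18.3 FPKM in WT and 37.3 and 33.5 FPKM in CD274-null libraries (log2 fold change 0.78, adjusted p = 0.288 from limma). It was not called and was named after its values were seen. The median of the 13 was 0.02. Ezh2, a repressor of class I genes in several cancers, and Usf2 had the highest levels of the list and were not called, with log2 fold changes of 0.27 and -0.32.

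Of 17 genes through which interferon and NF-kB reach the pathway, 0 were called by limma, by voom or without moderation, and 5 had an unadjusted p under 0.05, as did 13.7% of all tested genes. The median log2 fold change was 0.23, with 14 above 0, where 51.1% of all tested genes were. Those 5, named after their values were seen, were Irf1, Tyk2, Stat2 and Irf9 with log2 fold changes of 1.19, 0.78, 0.92 and 0.66, and Jak1 with -0.63. Irf1, an interferon-induced factor for class I promoters, had 14.7 and 12.9 FPKM in WT and 21.98 and 46.5 FPKM in CD274-null libraries, and it was highest in CD274-null replicate 2. The receptor gene Ifngr1 and Nfkb1, the highest of the list, had log2 fold changes of 0.09 and -0.02.

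The MHC class II genes, which use the same promoter module with the transactivator CIITA, are given side by side. Of 10 listed, 9 were tested, and 3 were called higher by limma and by voom, against 2.39% of all tested genes called higher, and 0 without moderation. The invariant chain gene Cd74 had 3.18 and 2.57 FPKM in WT and 35.6 and 21.4 FPKM in CD274-null libraries (log2 fold change 3.07, adjusted p = 0.0693 from limma). H2-Aa had 0.970 and 0.919 FPKM in WT and 16.4 and 7.42 FPKM in CD274-null libraries, and H2-Eb1 1.04 and 0.353 against 7.11 and 4.33 FPKM. The partner chain gene H2-Ab1 had 10.5 and 12.3 FPKM in WT and 16.1 and 10.4 FPKM in CD274-null libraries, with overlap. Of the 9, 5 had an unadjusted p under 0.05, against 13.7% of all tested genes, and the median log2 fold change was 1.33. Neither H2-DMa nor H2-DMb1, the highest of the list, was called (log2 fold changes 0.63 and -0.06). Ciita itself, named as their regulator, was at or under 0.199 FPKM in all libraries and was not tested. No test set class I against class II.

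Markers of other cell types are set beside the share of all tested genes called, 2.39% higher and 1.24% lower. The summed FPKM of 10 dendritic cell markers, 3 of them tested and 1 of those called higher, was 4.77 and 16.3 in WT against 23.5 and 34.0 in CD274-null libraries. Tcf4, the one called, and Flt3 made up most of it, and the other 8 summed to 0.571 and 1.68 against 3.31 and 4.52 FPKM. Of 12 T and NK cell markers, 2 were tested and 1 was called higher, Nkg7, with 32.4 and 11.7 FPKM in WT and 67.2 and 85.7 FPKM in CD274-null libraries. The other 11 summed to 0.861 and 2.03 in WT against 4.23 and 1.77 in CD274-null libraries, with overlap. Of 8 macrophage markers 6 were tested and 1 was called lower. This was Vcam1, with 117 and 92.3 FPKM in WT and 53.7 and 59.8 FPKM in CD274-null libraries. The list summed to 147 and 144 against 89.9 and 106 FPKM, most of it Vcam1. Adgre1, the next highest, had 22.2 and 47.1 against 28.4 and 42.6 FPKM, with overlap. Of the 6 tested, 3 had a log2 fold change above 0 and 3 below. Of 8 plasma cell markers, 3 were tested and 1 was called higher. This was Jchain, which had 0.370 and 0.514 FPKM in WT and 12.3 and 10.5 FPKM in CD274-null libraries. The list summed to 178 and 68.1 in WT against 148 and 119 in CD274-null libraries, with overlap. Most of this sum was Xbp1, which was not called (log2 fold change 0.12). Of 10 B cell markers 1 was tested and not called, Cd79b, with 12.8 and 36.2 FPKM in WT and 35.6 and 37.4 FPKM in CD274-null libraries. The other 9 did not pass 1.001 FPKM in any library. They summed to 0.285 and 0.990 in WT against 1.65 and 3.57 in CD274-null libraries. The defining genes Ms4a1 and Pax5 were listed at 0 in both WT libraries. In CD274-null replicates 1 and 2, Ms4a1 had 0 and 0.0976 FPKM and Pax5 0.0936 and 0.416 FPKM. A Mac-1+/c-Kit+ sort would leave out most lymphoid cells, and the part of any such cells in the levels of class I genes was not tested.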

How the data were processed

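RNA of 4 libraries, 2 labelled WT and 2 labelled CD274-null, was prepared with a TruSeq v2 kit. Per the submitters' processing notes, CASAVA 1.8.2, TopHat2 2.0.12 and GRCm38 were used. The table that the authors deposited holds FPKM, 1 value for each gene in each library. The counting program, gene lengths and strand setting are not given in the sources used here. All 4 columns matched a label (0 left over).

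Symbols came from RefSeq through NCBI gene numbers (25275 of 27179 matched). Log2(FPKM + 0.5) was compared with limma 3.58.1 (lmFit, eBayes with trend, two-sided) in R 4.3.3 for the 13230 genes averaging 0.5 FPKM or more, with no covariates, and p-values were adjusted over all of them after Benjamini and Hochberg. Fold changes are on this scale, which understates changes of low genes. A gene was called at an unadjusted p under 0.01 with a fold change above 1.5. The FPKM values of a gene stood in ratios of whole numbers, and reads were recovered, apart from any factor that all libraries share, for all 17083 genes (100%) with a value above 0 in 2 or more libraries. These reads summed to 11048767 and 9740856 in WT and to 8452662 and 9520926 in CD274-null libraries. The subunit ratios were compared by exact permutation in Python 3.11.15 with scipy 1.17.1. Both the fit and the recovery of reads were tested on simulated data.

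The members and lists were chosen with earlier results of these data known. Named were all members, called genes and the 2 highest tested genes of each pathway list, the 5 nearest profiles and Cd274. Cell type markers, Ciita and H2-Ab1 lie outside this rule and were picked with their values seen, and other genes named beyond it are marked as such. Some listed genes are not reported here. Alternatives were pseudocounts of 1 and 0.1, no filter, a stricter one of 5 FPKM, quantile normalization, equal medians, eBayes without trend, no moderation, a replicate block, correction for GC content (loess, span 0.3) with and without the block, voom on recovered reads, and leaving out each library. Transcript windows of 50 bases came from GENCODE M21 (GRCm38), and promoters from RefSeq (GRCm38.p6). No genome sequence was used.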

Additional observations from a re-analysis of the deposited data

How the results depend on the processing

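The limits are 2 libraries a group, libraries not stated to be separate mice, and labels that Cd274 does not separate. Each member had 16 alternatives, which gave 159 values, since Nlrc5 could not be fitted at a mean FPKM of at least 5. Direction and call were the same in 143, and the direction was opposite in 15. In the remaining value, Tap2 without WT replicate 2, the direction was the same and the call differed, in a fit with a single WT library. With all 4 libraries, the opposite log2 fold changes were those of H2-D1 with quantile normalization (-0.0345), equal medians (-0.00237) and GC correction, alone or with the replicate block (-0.13 in both), of B2m with GC correction, alone or with the block (0.0516), and of Psmb10 likewise (-0.00427). GC correction gave 0.169 for H2-K1, 0.0166 for Tap1, 0.324 for Tap2, 0.113 for Tapbp, 0.0722 for Psmb8, 0.119 for Psmb9 and -0.166 for Nlrc5. Leaving out 1 library at a time leaves 1 group with a single library, assumed to vary like the others. The log2 fold changes were then -0.12 to 0.16 for H2-D1, -0.25 to 0.0217 for B2m and -0.0502 to 0.38 for Tap1. They were -0.0199 to 0.35 for Psmb10, -1.01 to 0.82 for Nlrc5 and 0.03 to 0.54 for H2-K1. For Tapbp they were 0.10 to 0.51, for Psmb8 0.03 to 0.25, for Psmb9 0.04 to 0.41 and for Tap2 0.11 to 0.90. The direction was opposite without WT replicate 1 for H2-D1, Tap1 and Nlrc5, without CD274-null replicate 1 for B2m, and without CD274-null replicate 2 for H2-D1, Psmb10 and Nlrc5. The number of members called was 0 under every alternative that kept all 4 libraries and 0 to 1 when 1 was left out. Of all genes, 480 were called (316 higher, 164 lower), 254 higher and 210 lower with quantile normalization, 246 and 196 with equal medians, 322 with GC correction, 452 with voom, 170 without moderation and 294 with GC correction and block, and 149 to 645 when 1 library was left out, the lowest without CD274-null replicate 2 and 245 without CD274-null replicate 1. The counts with GC correction are over 11435 fitted genes, against 13230 in the main fit. The difference of the Psmb10 over Psmb7 log2 ratio was 0.0644 with GC correction. When 1 library was left out it was 0.14 to 0.66, that of Psmb8 over Psmb5 was 0.10 to 0.54 and that of Psmb9 over Psmb6 was -0.08 to 0.55. For each of these changes the cause was not tested.

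The titles number the replicates alike in both groups. Over 13230 genes the difference of replicate 1 from replicate 2 correlated with r = -0.0151 between WT and CD274-null. No pairing by number was thus seen, but with 2 libraries a group this correlation cannot show that the libraries are unpaired. With the number as a replicate block, 526 genes and 0 members were called.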
